A study of Mus musculus with 3 samples.

Results

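The BCL2 family decides whether the outer membrane of the mitochondrion is breached during apoptosis, and 10 of its genes were described here out of 55536 annotated genes in the tables. The members were chosen by gene symbol. They were the anti-apoptotic genes Mcl1, Bcl2a1a, Bcl2a1b, Bcl2a1d, Bcl2l1 and Bcl2, the effectors Bax and Bak1, and the BH3-only genes Bcl2l11 and Bbc3. All 10 had counts in all 3 libraries.

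Each library was made from the cytosol of bone marrow-derived macrophages, primary cells grown from C57BL/6J mice, and measured total RNA after removal of ribosomal RNA. Lipid A, the membrane anchor of bacterial lipopolysaccharide that Toll-like receptor 4 senses, had been given at 100 ng/ml for 60 min, and 1 µg of RNA went into each library. All 3 libraries formed 1 group, called replicates 1, 2 and 3 after their labels. Sex and age were not collected, no genetic change is labelled, and untreated cells and other fractions were not analysed here, so no induction could be measured. The labels give each library its own biosample under a common donor entry and do not say whether separate mice were used. The p-values below therefore judge distance from the median gene only against the spread of these samples, and that spread may be technical.

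In living cells the effectors BAX and BAK can assemble into pores that release cytochrome c, which activates caspases. The anti-apoptotic proteins hold effectors and BH3-only proteins in a surface groove, and BH3-only proteins such as BIM (encoded by Bcl2l11) and PUMA (encoded by Bbc3) act against them. MCL-1 and A1, the product of the Bcl2a1 genes, are short-lived proteins, and Bcl2a1 is a known NF-kB target in myeloid cells. Mice carry several near-identical Bcl2a1 genes.

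The macrophage label was compared with its markers. All 8 macrophage markers had a mean of at least 1 TPM (a level scaled by effective length and library total), and their summed level was 4785 to 9462 TPM over the libraries. Of 8 neutrophil markers 2 reached 1 TPM, S100a9 at 15.9 and S100a8 at 10.1 TPM, and the summed list was 23.8 to 30.3 TPM. The lists for T and NK, B, erythroid, mast, dendritic, and stromal and endothelial cells had no gene at 1 TPM and summed to at most 0.94 TPM in any library. Expected counts on annotated genes were 63944236, 71989793 and 69305836 in replicates 1, 2 and 3. The 7SL RNA genes took 57.1, 69.6 and 62.2% of all TPM, which lowers the TPM of every other gene by different amounts, and the median expressed protein-coding gene stood at 9.08, 5.76 and 6.86 TPM.

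Sequence decides how well the 3 Bcl2a1 genes can be told apart by reads, so their start is shown first. The lines below give coding bases 1 to 90 of each copy from the GENCODE M21 transcripts of GRCm38 (the build also called mm10), with the 6 positions where the copies differ in capitals. The stretches lie at chr9:88957051-88957140 on the plus strand, chr9:89199360-89199449 on the plus strand and chr9:88731630-88731719 on the minus strand.
Bcl2a1a: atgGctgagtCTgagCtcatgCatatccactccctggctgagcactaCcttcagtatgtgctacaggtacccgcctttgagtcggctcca
Bcl2a1b: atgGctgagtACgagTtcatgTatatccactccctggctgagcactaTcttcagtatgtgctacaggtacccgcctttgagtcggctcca
Bcl2a1d: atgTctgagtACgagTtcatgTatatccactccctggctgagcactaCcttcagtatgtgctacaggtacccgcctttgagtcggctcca

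Over the 516 coding bases, 12 positions differed among the copies, and identity was 97.9% between Bcl2a1a and Bcl2a1b, 98.6% between Bcl2a1a and Bcl2a1d and 98.8% between Bcl2a1b and Bcl2a1d. Of the 31-base words in each transcript, 161 of 789 in Bcl2a1a, 88 of 787 in Bcl2a1b and 91 of 833 in Bcl2a1d occurred in no other annotated gene on either strand. The other words of each copy also occurred in at least 1 other annotated gene. How many reads a copy could claim by itself was not tested.

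The copies share their upstream sequence as well. Over the RefSeq promoter windows (GRCm38.p6, 250 bases before to 50 after each gene's start), identity was 99.2% between Bcl2a1a and Bcl2a1b over 256 aligned columns, 96.0% between Bcl2a1a and Bcl2a1d over 300 and 96.5% between Bcl2a1b and Bcl2a1d over 256. The matching stretch upstream of each gene is printed below, from chr9:88956734-88956853 (plus strand), chr9:89199043-89199162 (plus strand) and chr9:88731917-88732030 (minus strand), and capitals mark 6 bases of a repeat that Bcl2a1d lacks.
Bcl2a1a: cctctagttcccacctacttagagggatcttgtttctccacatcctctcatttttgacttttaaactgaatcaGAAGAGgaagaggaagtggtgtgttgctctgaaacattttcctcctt
Bcl2a1b: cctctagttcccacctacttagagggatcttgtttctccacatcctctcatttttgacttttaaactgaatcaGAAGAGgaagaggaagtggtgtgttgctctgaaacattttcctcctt
Bcl2a1d: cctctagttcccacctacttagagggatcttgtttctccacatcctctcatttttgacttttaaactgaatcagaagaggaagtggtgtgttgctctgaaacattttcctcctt

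The letters GAGGAAGT, a purine-rich motif of the kind that ETS factors such as PU.1 bind, were searched on both strands. They occurred in the window of each Bcl2a1 copy and of Bak1, and in no window of the other 6 members. Over 32851 RefSeq promoter windows of the same length, 3.20% held them. The AP-1 motif TGACTCA, on either strand, was in 5.20% of all windows and in none of the 15 windows of the members. The kappaB motif, searched as a pattern with variable bases, was in 4.51% of all windows, in 1 of 3 Bbc3 windows and in 1 of 3 Bcl2l1 windows. It was in no window of the other members, the Bcl2a1 copies among them. A match is a description of letters and not a bound site, and the copies are not independent cases.

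Among the anti-apoptotic genes, Mcl1 and the Bcl2a1 copies supplied nearly all of the message and Bcl2 almost none. In bulk libraries like these, fewer cells of a type and less RNA per cell cannot be told apart. Mcl1 (ENSMUSG00000038612.16, chr3:95658788-95663176, plus strand) encodes a multidomain protein that binds BAK and BIM. It had 325, 248 and 258 TPM in replicates 1, 2 and 3, from 94251, 107842 and 90529 expected counts. It was the highest member in every library and ranked 136 of 9118 tested protein-coding genes by mean TPM.

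Levels were tested against the library's own median gene with limma's treat, which asks whether a gene lies outside a band of 1 on the log2(TPM + 0.1) scale. Mcl1 lay above the median gene by 5.25 ± 0.09 (SE, limma adjusted p = 2.1e-07), the widest margin of the members tested. Of the 9 members with a mean of at least 1 TPM, 7 were above the band, 1 was below and 1 was not called. The same test called 26.3% of all 9118 protein-coding genes above and 24.5% below. The median difference from the median gene was 2.63 over the 9 members and -0.0047 over all genes tested, both on the log2 scale.

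Bcl2a1b (ENSMUSG00000089929.1, chr9:89199209-89207827, plus strand) was the most abundant copy of the A1 gene. It had 230, 139 and 129 TPM in replicates 1, 2 and 3, ranked 240 of 9118, and lay 4.48 ± 0.11 log2 units above the median gene (SE, limma adjusted p = 4.3e-07). By TPM of the gene tables, replicate 1 was the highest for Bcl2a1b and every other member but Bcl2, which tied between replicates 1 and 3. Relative to the library's median gene, replicate 2 was instead the highest for Mcl1, Bcl2a1d, Bcl2l11, Bax, Bak1 and Bbc3. Bcl2a1d (ENSMUSG00000099974.1, chr9:88723285-88731914, minus strand) followed with 98.0, 66.1 and 46.4 TPM and lay 3.22 ± 0.15 above the median gene (limma adjusted p = 1.3e-05). Bcl2a1a (ENSMUSG00000102037.1, chr9:88956900-88962419, plus strand) had 9.71, 6.16 and 3.69 TPM and was not called, at -0.23 ± 0.19 on the log2 scale. The sign turned without replicate 3, at 0.10, and with genes under 1 TPM kept, at 1.13, again with no call. Its level was close to the median gene in replicates 1 and 2, at 0.10 in each, and lower in replicate 3, at -0.88.

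Because the copies share most of their sequence, their counts were set side by side from both quantifications, the gene tables in RSEM's format and a second set of transcript tables in kallisto's. Expected counts of Bcl2a1b were 12686, 12531 and 9914, and the second transcript tables gave it 13846, 13449 and 10522. Bcl2a1d had 5801, 6418 and 3851 expected counts, against 6513, 6955 and 4166 in the second tables. Bcl2a1a had 536, 558 and 285 expected counts, against 593, 590 and 319 in the second tables. Both quantifications put the copies in the same order in all 3 libraries. By TPM of the second tables, replicate 1 was the highest only for the Bcl2a1 copies and Bcl2l1. Mcl1 there had 136, 158 and 161 TPM in replicates 1, 2 and 3, with replicate 1 the lowest.

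As a share of the 3 copies' expected counts, Bcl2a1b held 66.7, 64.2 and 70.6% (mean 67.2% ± 3.2, SD, n = 3). Bcl2a1d held 30.3% ± 2.8 and Bcl2a1a 2.57% ± 0.47. From the second tables the shares were 66.8% ± 3.1, 30.7% ± 2.7 and 2.59% ± 0.40 (SD, n = 3 each). The authors' posterior SD of the expected count, which covers the assignment of reads between genes, was at most 14.3 counts for Bcl2a1a and 24.1 for Bcl2a1d. That SD was small beside the spread between libraries, and whether reads were assigned to the right copy was not tested.

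Some annotated genes overlap the copies, and no source used here says whether counting was stranded. Gm29094, on the same strand as Bcl2a1b, had 62.4, 69.7 and 44.5 expected counts. Gm10634, antisense to Bcl2a1d, had 255, 74.3 and 152. Both were small beside the counts of the copy they overlap. Outside the copies, Gm45808 on the same strand as Bax had 5.7, 5.16 and 3.33 expected counts. Entries of Ggnbp1, antisense to Bak1, had at most 24.8. Of the 31-base words, 674 of 837 in Bax-201 and 520 of 872 in Bak1-203 occurred in no other annotated gene. The further copy Bcl2a1c, which is not a member, had 17, 8 and 10 expected counts, and 1, 1 and 0 in the second tables.

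**Figure D1:**
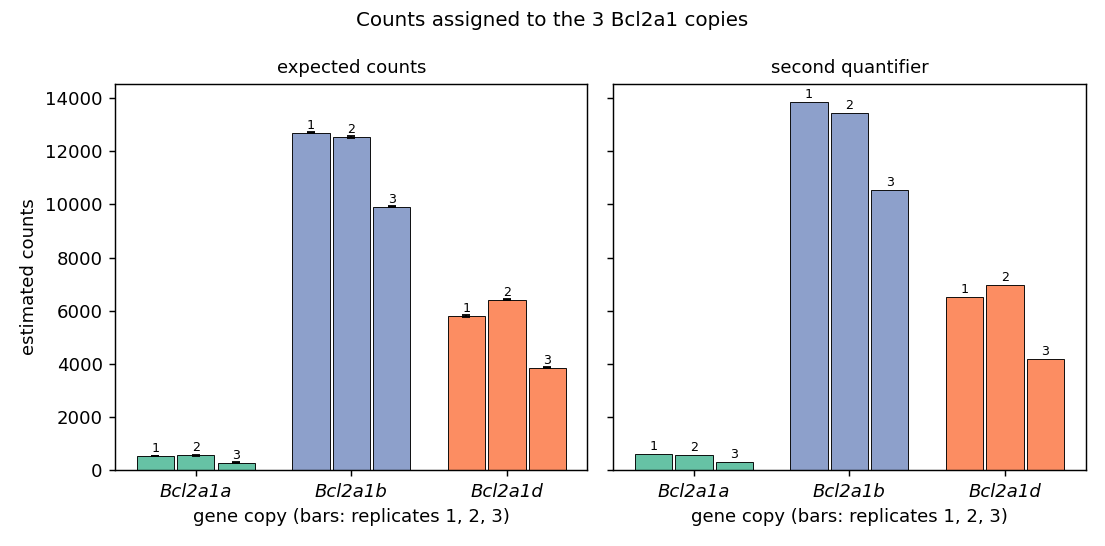
Counts assigned to the 3 Bcl2a1 copies, with 1 bar for each library, from the gene tables (expected counts, left, error bars are the authors' posterior SD) and as estimated counts of the second transcript tables (right). Bcl2a1b had 9914 to 12686 expected counts, Bcl2a1d 3851 to 6418 and Bcl2a1a 285 to 558, and the order was the same in both panels.

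Summed over the copies, Bcl2a1 reached 338, 211 and 179 TPM, against 325, 248 and 258 TPM for Mcl1. The sum was above Mcl1 in replicate 1 and below it in replicates 2 and 3. Mcl1 made up 46.6, 51.6 and 56.1% of the summed TPM of the 6 anti-apoptotic members (mean 51.4% ± 4.7, SD, n = 3), and the Bcl2a1 copies 48.4, 44.0 and 38.9%. In the second tables the copies were below Mcl1 in all 3 libraries, at 43.9, 38.0 and 34.1% against 51.4, 58.0 and 61.2%. Neutrophils also express Mcl1 and Bcl2a1 genes. The 2 neutrophil markers over 1 TPM, S100a8 and S100a9, stood far under the members' leading genes at 15.9 TPM or less, and their part in the levels was not tested.

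Bcl2l1 (ENSMUSG00000007659.18, chr2:152780668-152831728, minus strand), which encodes BCL-xL, had 33.9, 20.4 and 22.2 TPM. It lay 1.79 ± 0.07 log2 units above the median gene (SE, limma adjusted p = 3.1e-05) and gave 4.65% ± 0.34 of the anti-apoptotic sum (SD, n = 3). Of its 9 annotated transcripts, Bcl2l1-201 and Bcl2l1-202 both encode 233 codons, the length of BCL-xL. Together they made up 82.9, 88.9 and 87.7% of the gene's TPM in replicates 1, 2 and 3. Bcl2l1-202 has no 31-base word of its own, so the split between them is uncertain.

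Bcl2 (ENSMUSG00000057329.7, chr1:106538178-106714274, minus strand), the founding member of the family, had 1.06, 0.77 and 1.06 TPM. Its mean of 0.963 TPM fell under the minimum of 1 TPM, so it was not tested. The gene had 636, 771 and 923 expected counts in replicates 1, 2 and 3. Of these, 616, 752 and 908 lay on a main transcript of 7191 bases. The gene's counts are 9.95, 10.7 and 13.3 CPM (counts scaled by the library total), with 95% Wilson intervals of 9.20 to 10.7, 9.98 to 11.5 and 12.5 to 14.2. These intervals cover counting error only. Relative to the median gene, Bcl2 stood at -2.98, -2.75 and -2.58 on the log2 scale, the lowest member in every library. Under the alternatives that kept it in the fit, it was called below the median gene, for example without replicate 2 (-2.75, limma adjusted p = 0.000215, range over 3 alternatives 1.3e-05 to 0.00233).

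**Figure D2:**
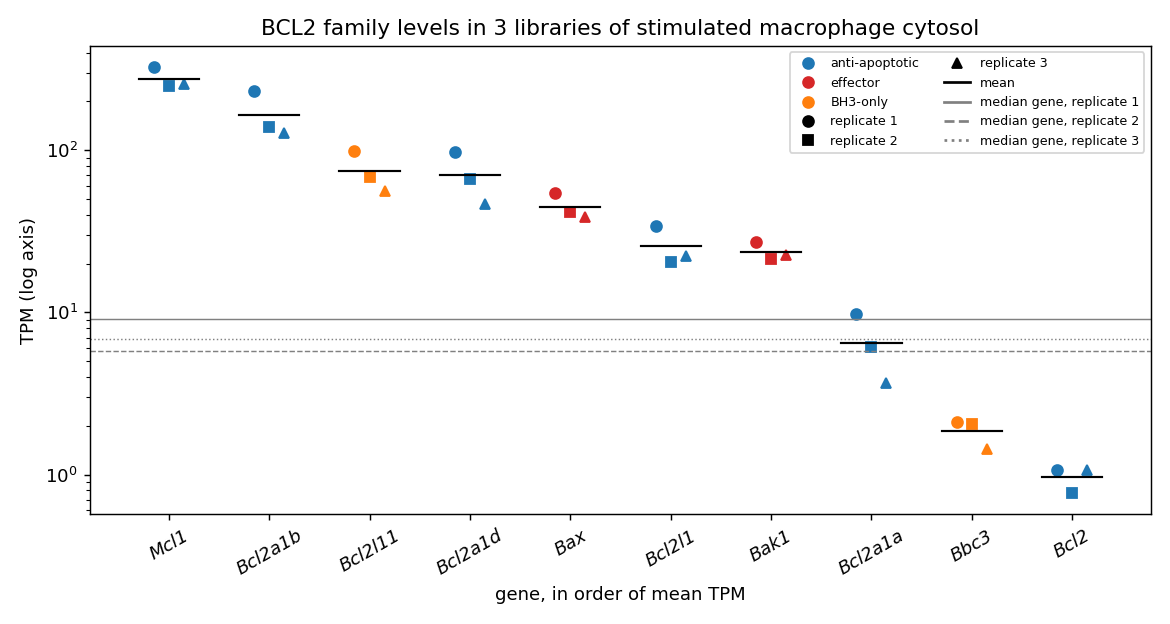
TPM of the 10 members (log axis) in order of their mean, with 1 point for each library (circle, square and triangle for replicates 1, 2 and 3), a bar for the mean, color for the role and grey lines for each library's median gene. Mcl1 at 248 to 325 TPM was highest and Bcl2 at 0.77 to 1.06 TPM lowest, and 7 members stood above all 3 grey lines.

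The transcripts of Mcl1 differed between the quantifications. Mcl1-201 encodes 331 codons, and the shorter Mcl1-202 is annotated without 138 bases (46 codons) of the first coding exon, in frame, at chr3:95658909-95659046. The lines below show those bases as Mcl1-201 carries them and the junction of Mcl1-202 over them, with the flanks at chr3:95658894-95659061 on the plus strand.
Mcl1-201: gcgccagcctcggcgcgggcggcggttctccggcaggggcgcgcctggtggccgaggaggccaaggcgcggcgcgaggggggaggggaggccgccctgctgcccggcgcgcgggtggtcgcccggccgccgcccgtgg
Mcl1-202: acctgtactgcggcggcgccgaggaccccg

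Mcl1-201 made up 100, 89.3 and 81.6% of the gene's TPM in replicates 1, 2 and 3 (the authors' IsoPct, mean 90.3% ± 9.2, SD, n = 3). Mcl1-202 had 0, 2568 and 3904 expected counts. In the second tables it had 5951, 12740 and 10891, and its share of the gene's TPM was 23.2, 38.1 and 38.6% (mean 33.3% ± 8.8), against 0, 10.8 and 18.4% in the first tables. Both tables put the lowest share in replicate 1. Of the 828 31-base words of Mcl1-202, 24 occur in no other annotated transcript. Its 858 bases hold no untranslated sequence, so a given count weighs more per length than on the 3418 bases of Mcl1-201. The expected count of the gene is the sum over both transcripts.

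The effectors were expressed at moderate levels. Bax (ENSMUSG00000003873.11, chr7:45461697-45466898, minus strand), whose protein moves from the cytosol to mitochondria on activation, had 54.8, 41.3 and 38.6 TPM. It lay 2.63 ± 0.08 log2 units above the median gene (SE, limma adjusted p = 4.1e-06). Its transcript Bax-201, with 192 codons, made up 85.9, 86.2 and 88.2% of the gene's TPM. Bak1 (ENSMUSG00000057789.14, chr17:27019810-27029009, minus strand), whose protein resides on the outer membrane, had 27.0, 21.5 and 22.7 TPM and lay 1.72 ± 0.08 above the median gene (limma adjusted p = 0.000111). Bax was higher than Bak1 in 3 of 3 libraries, by 1.02, 0.94 and 0.77 on the log2 scale of the TPM ratio, with all annotated Bak1 transcripts counted.

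Most of the Bak1 message was assigned to transcripts that are annotated as targets of nonsense-mediated decay, the pathway that degrades messages with an early stop codon. Bak1-201 carries an added exon of 20 bases at chr17:27021663-27021682. An exon of this kind that shifts the reading frame has been described for Bak in mouse neurons. Bak1-204 lacks 5 bases at another junction. The lines below give both junctions on the minus strand, spanning chr17:27021328-27022458 in the first pair and chr17:27022853-27025812 in the second, with the bases that only 1 transcript of the pair carries in capitals.
Bak1-201, with the 20-base exon: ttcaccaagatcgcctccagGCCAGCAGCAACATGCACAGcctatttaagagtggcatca
Bak1-202, without it: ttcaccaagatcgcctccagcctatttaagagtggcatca
Bak1-202, second junction: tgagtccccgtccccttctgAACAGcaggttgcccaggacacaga
Bak1-204, second junction: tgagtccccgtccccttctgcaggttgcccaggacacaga

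Bak1-201 made up 30.9, 46.6 and 43.8% of the gene's TPM in replicates 1, 2 and 3, and Bak1-204 36.1, 38.8 and 35.6%. Together they held 67.0, 85.4 and 79.3% (mean 77.2% ± 9.4, SD, n = 3). In the second tables their sum was 61.4, 70.5 and 63.7% (mean 65.2% ± 4.8). Bak1-202, which encodes the full protein of 209 codons, had 18.3, 3.85 and 7.26%, and the second tables gave it 17.2, 7.29 and 16.7%. Bak1-203, also annotated as protein-coding with 146 codons, had 14.8, 10.8 and 13.4%, and 21.4, 22.2 and 19.6% in the second tables. These 2 coding transcripts together held 33.0, 14.6 and 20.7%, and 38.6, 29.5 and 36.3% in the second tables. The decay-annotated sum was above the coding sum in every library by both quantifications. Words of 31 bases found in no other annotated transcript numbered 46 in Bak1-201, 29 in Bak1-204 and 168 in Bak1-202, so the split rests on short stretches of each. Without these decay-annotated transcripts, Bak1 had 8.92, 3.14 and 4.69 TPM in the first tables. The library's median gene stood at 9.08, 5.76 and 6.86 TPM, but with all transcripts of every gene counted, so the measures are unlike. Bax then exceeded Bak1 by 2.62, 3.72 and 3.04 on the log2 scale of the TPM ratio. In the second tables the coding share of Bak1 was higher, and these values were not recomputed from them.

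**Figure D3:**
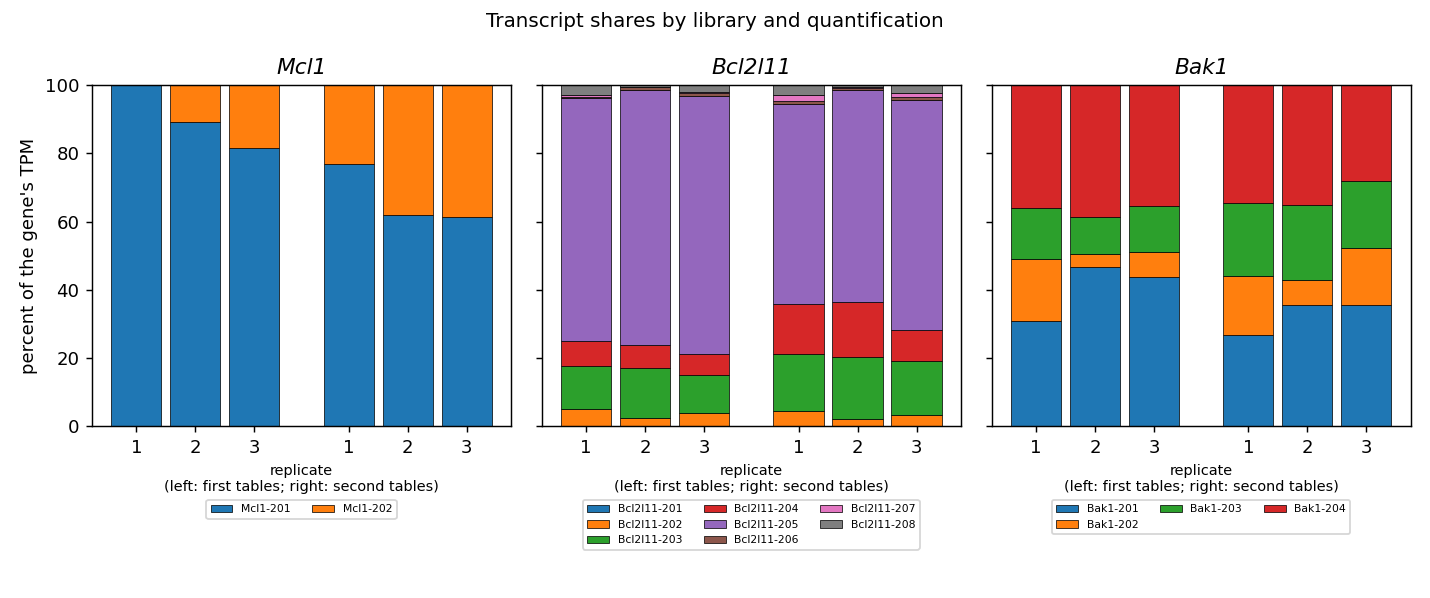
Percent of each gene's TPM in its annotated transcripts, stacked, for Mcl1, Bcl2l11 and Bak1, with 1 bar for each library from the first transcript tables (left group) and the second (right group). Mcl1-202 ranged from 0 to 18.4% in the first tables and from 23.2 to 38.6% in the second, and Bcl2l11-205 was the largest share of its gene in all 6 bars.

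The anti-apoptotic sum was 698, 480 and 460 TPM in replicates 1, 2 and 3, and the sum of Bax and Bak1 was 81.8, 62.8 and 61.3 TPM. On the log2 scale the ratio was 3.09, 2.93 and 2.91 (mean 2.98 ± 0.10, SD, n = 3). With Bak1 counted without the decay-annotated transcripts, the mean ratio was 3.43 ± 0.02. These are ratios of messages and not of proteins.

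Bcl2l11 led the BH3-only members. It (ENSMUSG00000027381.16, chr2:128126038-128162547, plus strand) encodes BIM, which binds the anti-apoptotic proteins broadly. It had 98.5, 68.2 and 55.9 TPM, lay 3.33 ± 0.11 log2 units above the median gene (SE, limma adjusted p = 3.2e-06) and ranked 557 of 9118. With 35903, 42374 and 29885 expected counts it was second to Mcl1 in counts among the members. Mcl1 was higher in TPM in 3 of 3 libraries, by 1.72, 1.86 and 2.21 on the log2 scale of the TPM ratio.

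BIM is made in forms of different length that share the BH3 domain. The longest, known as BimEL, contains a stretch that the shorter BimL lacks and in which phosphorylation controls stability. The 168 coding bases (56 codons) found only in the 196-codon transcript Bcl2l11-205 are shown, followed by the 90-base exon that Bcl2l11-203 has and the 110-codon form (BimS) lacks. They adjoin at chr2:128128757-128128924 and chr2:128128925-128129014, plus strand.
Bcl2l11-205: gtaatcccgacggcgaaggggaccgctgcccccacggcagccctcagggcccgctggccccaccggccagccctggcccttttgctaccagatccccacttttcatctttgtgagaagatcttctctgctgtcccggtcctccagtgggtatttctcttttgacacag
Bcl2l11-203: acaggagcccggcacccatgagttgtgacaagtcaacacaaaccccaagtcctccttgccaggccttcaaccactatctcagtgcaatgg

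Bcl2l11-205, the 196-codon form, made up 71.1, 74.6 and 75.6% of the gene's TPM in replicates 1, 2 and 3 (mean 73.8% ± 2.4, SD, n = 3). The 140-codon form Bcl2l11-203, the length of BimL, held 12.8% ± 1.9, and the 110-codon form, summed over Bcl2l11-201 and Bcl2l11-204, held 6.86% ± 0.54. Bcl2l11-202, with 91 codons, held 3.69% ± 1.31 and the 3 transcripts with no coding sequence 2.88% ± 1.28. The second tables gave the same order for the 3 longest forms, at 62.6% ± 4.4, 17.0% ± 1.3 and 13.3% ± 3.7 (SD, n = 3 each). Bcl2l11-203 and Bcl2l11-204 have no 31-base word of their own, and Bcl2l11-205 has 1319 of 5006.

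Bbc3 (ENSMUSG00000002083.13, chr7:16308393-16318205, plus strand), the p53 target that encodes PUMA, had 2.11, 2.06 and 1.43 TPM. It was the only member called below the median gene, at -1.89 ± 0.15 on the log2 scale (SE, limma adjusted p = 0.00103). When genes under 1 TPM were kept in the fit, which lowers the median gene, the difference was -0.53 and the call ended (limma adjusted p = 1, range over 7 alternatives 0.000281 to 1). Its 241, 413 and 240 expected counts are 3.77, 5.74 and 3.46 CPM, with 95% Wilson intervals of 3.32 to 4.28, 5.21 to 6.32 and 3.05 to 3.93. Replicate 2 had the highest share of counts. The intervals hold counting error only and not the spread between libraries. Transcript Bbc3-201, with 193 codons, made up 63.2, 74.1 and 69.5% of the gene's TPM, and the retained-intron transcript Bbc3-203 36.8, 22.6 and 27.9%.

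In order of mean TPM the members ran Mcl1, Bcl2a1b, Bcl2l11, Bcl2a1d, Bax, Bcl2l1, Bak1, Bcl2a1a, Bbc3 and Bcl2. Of the 9 pairs of neighbours, 7 differed in the same direction in all 3 libraries by more than the SD of the difference. Mcl1 exceeded Bcl2a1b by 0.78 ± 0.26 (SD, n = 3) on the log2(TPM + 0.1) scale, and Bcl2a1b exceeded Bcl2l11 by 1.15 ± 0.11. Bcl2l11 and Bcl2a1d differed by 0.11 ± 0.14, and Bcl2l1 and Bak1 by 0.07 ± 0.22 with Bcl2l1 higher in 1 of 3 libraries, so neither pair was separated beyond its spread. The widest gap lay between Bak1 and Bcl2a1a, at 1.95 ± 0.58.

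The spread between libraries was measured as edgeR's tagwise biological coefficient of variation (BCV) on TMM-scaled counts. The median BCV was 0.135 over the 10 members and 0.122 over 13026 genes. Bcl2l1 varied least, at 0.0887, and Bcl2a1a most, at 0.268 (percentile 90.8 of all genes), followed by Bbc3 at 0.253 (percentile 88.5) and Bcl2a1d at 0.190. The Bcl2a1a and Bcl2a1d counts were lowest in replicate 3, as were those of every other member but Bak1 and Bcl2.

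Beyond the members, 37 other genes of the pathway were read. Of these, 29 had a mean of at least 1 TPM, and 10 were above the median gene, 2 below and 17 not called, against 26.3% above and 24.5% below over all genes. The remaining family members were mostly low. Bcl2l2, which encodes BCL-w, had 6.30, 4.08 and 3.98 TPM and was not called (-0.59 ± 0.07, log2 difference). Bcl2l10 had 0.01, 0 and 0 TPM and Bcl2a1c 0.79, 0.23 and 0.34 TPM. Bok, an effector related to BAX, had 0, 0 and 0.02 TPM.

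Of the other BH3-only genes, Pmaip1, the p53 target that encodes the MCL-1 ligand NOXA, was the highest. It had 33.4, 20.9 and 19.3 TPM and lay 1.73 ± 0.09 log2 units above the median gene (SE, limma adjusted p = 0.000249). Bid, whose protein links death receptors to mitochondria, had 9.90, 5.93 and 6.86 TPM, and Bad, whose protein responds to growth factor signals, 12.9, 8.35 and 8.33 TPM. Neither was called. Bmf averaged 0.693 ± 0.248 TPM and Bik 0.063 ± 0.038 TPM (SD, n = 3 each). Hrk had 0 expected counts in all 3 libraries, which allows up to 3 counts, or 0.0469, 0.0417 and 0.0433 CPM. The second tables gave it 1.07, 1.09 and 1.14 estimated counts.

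Downstream of the mitochondrion, 1 of 6 apoptosome and caspase genes passed the test above the median gene, and 5 did not pass. The gene above was Apaf1, the scaffold of the apoptosome, with 32.1, 18.6 and 17.7 TPM (1.61 ± 0.09, limma adjusted p = 0.000717). The call ended with the second tables, at 0.78 (limma adjusted p = 1, range over 7 alternatives 1.3e-08 to 1). Among 6 inhibitor of apoptosis genes and their antagonists, Birc3, an NF-kB target that encodes cIAP2, was above at 50.9, 27.5 and 28.0 TPM (2.24 ± 0.09, limma adjusted p = 2.2e-05). Xiap, a direct caspase inhibitor, had 16.9, 10.3 and 12.7 TPM and was not called. It was called above with counts per kb, at 1.16 (limma adjusted p = 0.0214). With genes under 1 TPM kept it was also above, at 2.23 (limma adjusted p = 2.3e-08).

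All 3 genes of the outer membrane channels were above the median gene, with Vdac2, whose protein is a partner of BAK, at 67.2, 41.2 and 48.9 TPM and Vdac1 at 60.4, 44.4 and 49.9 TPM. Among 6 regulators 3 were above. Mdm2, the ubiquitin ligase of p53, had 119, 78.9 and 84.9 TPM (3.69 ± 0.07, limma adjusted p = 2.4e-07), and Usp9x, a deubiquitinase that stabilises MCL-1, 46.0, 27.5 and 36.7 TPM (2.32 ± 0.06, limma adjusted p = 3.2e-06). In the list of 6 BCL2-related genes, Bnip3l, a mitophagy receptor, was above at 34.6, 24.5 and 30.6 TPM, and Bcl2l13 had 6.74, 5.01 and 4.65 TPM and was not called. The 2 genes below the median gene, Bcl2l12 (-1.36 ± 0.06) and Birc5 (-1.90 ± 0.26), are named here after their values were seen. Birc5, which encodes survivin, had 1.70, 1.05 and 3.35 TPM, with replicate 3 the highest.

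**Figure D4:**
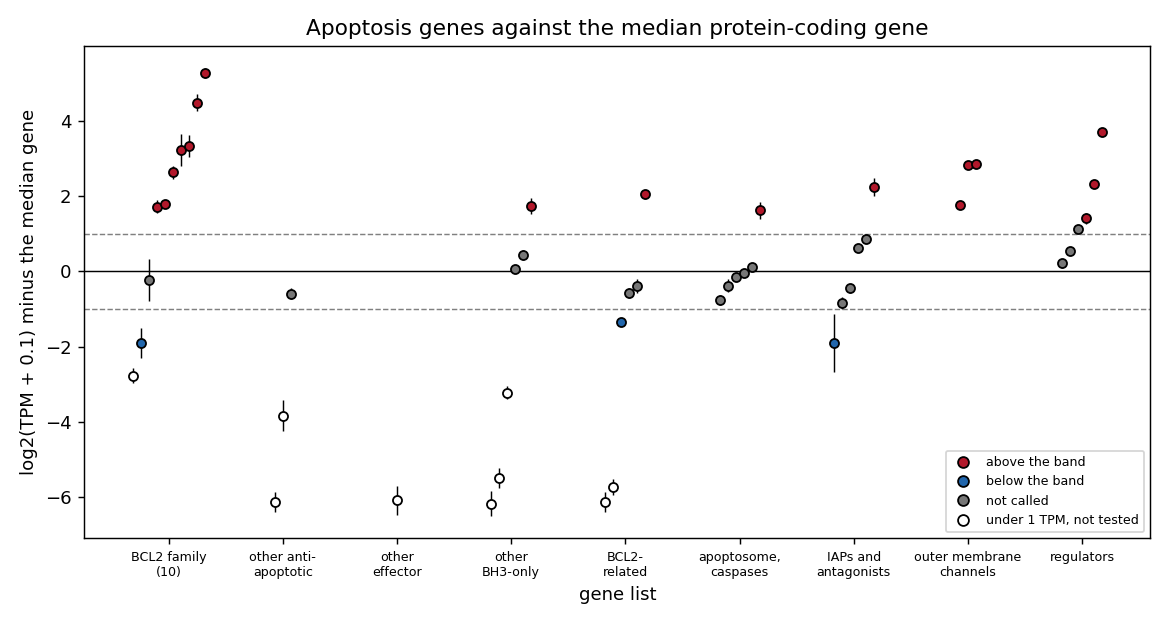
Mean difference from the library's median protein-coding gene on the log2(TPM + 0.1) scale (points, with the SD over 3 libraries) for the 10 members and for 37 other apoptosis genes by list, with dashed lines at the band of 1 and color for the limma call. The BCL2 family ran from Mcl1 at 5.25 to Bcl2, which was not tested, and 7 of its points lay above the upper dashed line.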

How the data were processed

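RNA-seq tables of 3 libraries in 1 group were used. Per the file headers, the gene tables hold the authors' expected counts and TPM, in columns named as RSEM writes them, with a posterior SD of the count. Per the file headers, the transcript tables add IsoPct, each transcript's percent of its gene. A second deposited transcript table gives estimated counts and TPM, in columns named as kallisto writes them. The deposited description files name mm10 and GENCODE M21. Aligner, quantifier versions and strand use: not given in the sources used here. Of 55536 gene IDs, 55450 matched the annotation given, all members among them. Rows that are not annotated genes held 0.260, 0.0933 and 0.0577% of the counts and were left out.

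Members and gene lists were chosen with earlier results of these data known. The genes named are all 10 members, every other anti-apoptotic, effector and BH3-only gene, and the 2 highest in each further list, of which 1 gene is not reported here.

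Levels were log2(TPM + 0.1) minus the library median over protein-coding genes with a mean of at least 1 TPM. An intercept-only model in limma 3.58.1 (R 4.3.3) tested them by treat (band 1, trend), with Benjamini-Hochberg adjusted p under 0.05 as the call. This scale understates differences of low genes. Expected counts were rounded to whole numbers for edgeR 4.0.16 (TMM, filterByExpr). Fits were tested on simulated data. Depth was 64110863, 72057046 and 69345880 expected counts in replicates 1, 2 and 3. Counts of library pairs differed by far more than sampling noise (chi-square per degree of freedom of 100.3 to 158), so no library was counted as a duplicate. Sequence came from GENCODE M21 transcripts and RefSeq promoter windows, and 31-base words were compared across all annotated transcripts on both strands. Alternatives were the second tables, a pseudocount of 1, no filter, counts per kb, DESeq2 1.42.0 size factors and leaving out each library.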

Additional observations from a re-analysis of the deposited data

How the results depend on the processing

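No paired analysis was possible because all libraries belong to 1 group. The 7 members above the median gene stayed at 7 under every alternative run, and of 63 recomputed member levels 60 kept their direction and side of the threshold. The call of Bbc3 ended without the filter, at -0.53, and Bcl2a1a, never called, turned to 1.13 without the filter and ranged from -0.44 to 0.10 with a library left out (positive without replicate 3). The members below, 1 in the report, were 2 with counts per kb and 1 to 2 with a library left out. The other apoptosis genes below, 2 in the report, were 1 with the second tables, 1 with a pseudocount of 1 and 1 to 2 with a library left out. Without a filter on low values they were 20 above and 7 below, and over all protein-coding genes 4982 above and 5449 below, since the median gene falls. The second tables gave 1427 protein-coding genes below, against 2236. With the second tables the log2 ratio of anti-apoptotic to effector level was 3.09, the Mcl1 share of the anti-apoptotic sum 56.9%, the share of Mcl1-201 66.7% and that of Bcl2l11-205 62.6%, and the cause was not tested. Counts per kb gave an Mcl1 share of 56.4%. Counting Bak1 without its decay-annotated transcripts, an alternative added after seeing the data, gave a log2 ratio of 3.43. With a library left out, the ratio was 2.92 to 3.01, the Mcl1 share 49.1 to 53.8%, the Bcl2a1b share 65.5 to 68.6%, the Mcl1-201 share 85.4 to 94.6% and the Bcl2l11-205 share 72.9 to 75.1%. Of 91 recomputed levels of 13 other genes, 82 kept direction and call. Bid, Bad and Xiap gained a call above the median gene without the filter, as did Xiap with counts per kb. Apaf1 lost its call with the second tables. The sign turned, with no call on either side, for Bcl2l2 (0.77) and Bcl2l13 (0.97) without the filter and for Bid with the second tables (-0.36) and with a library left out (-0.025 to 0.10, negative without replicate 1). The order of the members separated 8 of 9 neighbours with the second tables or counts per kb, and 7 in the report. Counts were lowest for Bbc3 and Bcl2a1a, and shared sequence limits the transcript shares.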
